A study of Mus musculus with 4 samples.

Results

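Translation initiation factors are the proteins that bring a ribosome to the start codon of an mRNA, and their genes carry symbols that begin with Eif. The genes described here are all those with such a symbol on the array, except the Eif2ak kinases, which act on initiation from outside, and Eif2s3y, which lies on the Y chromosome. There were 50 of them among 20276 named genes on the array, measured by 72 probes. Of the 50, 48 passed the filter on dim probes, which asks for a signal well above background on both arrays of at least 1 group, and all 48 were above background on all 4 arrays. Eif4e1b encodes an oocyte form of the cap-binding protein, and Eif5b the GTPase of subunit joining. Neither gave a signal above background with the 3 probes that stand for them, and they were not tested. Only 1 of these probes stands for Eif5b, so its RNA cannot be called absent from this.

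Lymphoid-primed multipotent progenitors (LMPP) are early blood-forming cells of bone marrow. They came from IRF8-GFP knockin mice, in which GFP reports on a transcription factor of dendritic cell and monocyte development, and both groups carried this reporter. Both groups were sorted as Sca-1 and CD117 positive cells that also bear CD34 and CD135 and lack CD150, IL-7R and lineage markers. The IRF8-GFP negative and the IRF8-GFP positive group had 2 one-colour arrays each, labelled exp 1 and exp 2. Strain, age, sex, the number of mice and whether the 2 arrays of a group stand for different animals are not given in the sources used here. The p-values therefore rest on array-to-array spread alone, and this may be technical.

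Initiation begins when eIF2, loaded with GTP and the initiator tRNA, joins the small ribosomal subunit together with eIF1, eIF1A, eIF3 and eIF5. The eIF4 factors bind the cap of the mRNA, unwind its leader and hand it to eIF3, and eIF2B recharges eIF2 for the next round. Cells adjust the process mainly by phosphorylating eIF2, which blocks eIF2B, and by holding eIF4E with 4E-binding proteins that mTORC1 releases.

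Irf8 followed the sort, with a log2 difference of 3.55 (SE 0.06, limma adjusted p = 0.000802). Of the surface genes, Kit, Ly6a, Cd34 and Flt3 were above background on all 4 arrays and Slamf1, the CD150 gene, on 0, while Il7r was 5.26-fold higher in the positive group (adjusted p = 0.000835). Ly6a, the Sca-1 gene, fell by 0.96 (SE 0.07, limma adjusted p = 0.00222) and Kit by 0.39 (SE 0.06, adjusted p = 0.00769), and Cd34 and Flt3 rose by 0.26 (adjusted p = 0.0249) and 0.25 (adjusted p = 0.0257). The share of marker genes above background on both arrays of a group was 2 of 6 for B cells and 3 of 6 for T cells in either group, and for stroma 5 of 6 negative and 4 of 6 positive, for neutrophils 3 of 6 and 2 of 6, for red cells 5 of 5 and 3 of 5 and for megakaryocytes 5 of 5 and 4 of 5. The log2 of a list's summed signals, in which bright markers weigh most, went from 3.38 to 3.46 up to 3.76 to 3.80 for B cells. It went from 4.53 to 4.55 down to 4.43 to 4.47 for T cells and from -0.25 to -0.19 down to -1.07 to -0.83 for neutrophils. For stroma it went from 3.75 to 3.97 up to 4.01 to 4.36, but the stroma markers that passed were lower. These were Col1a2 (-0.54, limma adjusted p = 0.0184) and Cxcl12 (-0.49, adjusted p = 0.0364). Kdr (0.36, adjusted p = 0.146), Lepr (0.35, adjusted p = 0.0756) and Col1a1 (-0.11, adjusted p = 0.554) did not pass. Monocyte markers were above background on every array, 6 of 6. The log2 of their summed signals was 3.05 to 3.08 on the negative and 6.48 to 6.55 on the positive arrays. The 5 megakaryocyte markers went the other way, from 2.63 to 2.66 down to 1.14 to 1.19, and the 5 red cell markers from 3.75 to 3.90 down to 3.11 to 3.19. Some defining genes of mature cells were not well above background on any array (Ms4a1 and Ebf1 for B cells, Cd3g, Cd3d and Cd8a for T cells, Ltf, Ngp and Mmp8 for neutrophils, Cdh5 for endothelium). These shifts move with the comparison, and their part in the values below was not tested. In sorted bulk samples, fewer cells of a type and less RNA per cell cannot be told apart.

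Initiation factor genes were higher in IRF8-GFP positive LMPP almost throughout. Signals are log2 values relative to the 75th percentile of an array, and differences are positive minus negative. Of the 48 tested, 44 (91.7%) passed a limma adjusted p of 0.05 as higher and 0 as lower, where 38.5% of all 22362 tested genes and unnamed transcripts were higher and 21.4% lower. The members' median log2 difference was 0.52, and that of all genes was 0.16. Both positive arrays exceeded both negative ones in 47 members, as in 52.4% of all genes. A difference of at least 0.5 was called in 27 members and in 18.9% of all genes. The largest difference was 0.93, so that no member changed as much as 2-fold. In all 48 the difference exceeded the widest gap between arrays of 1 group, which was 0.19 at most (Eif4e3) with a median of 0.06. The same held for 75.7% of all genes.

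**Figure D1:**
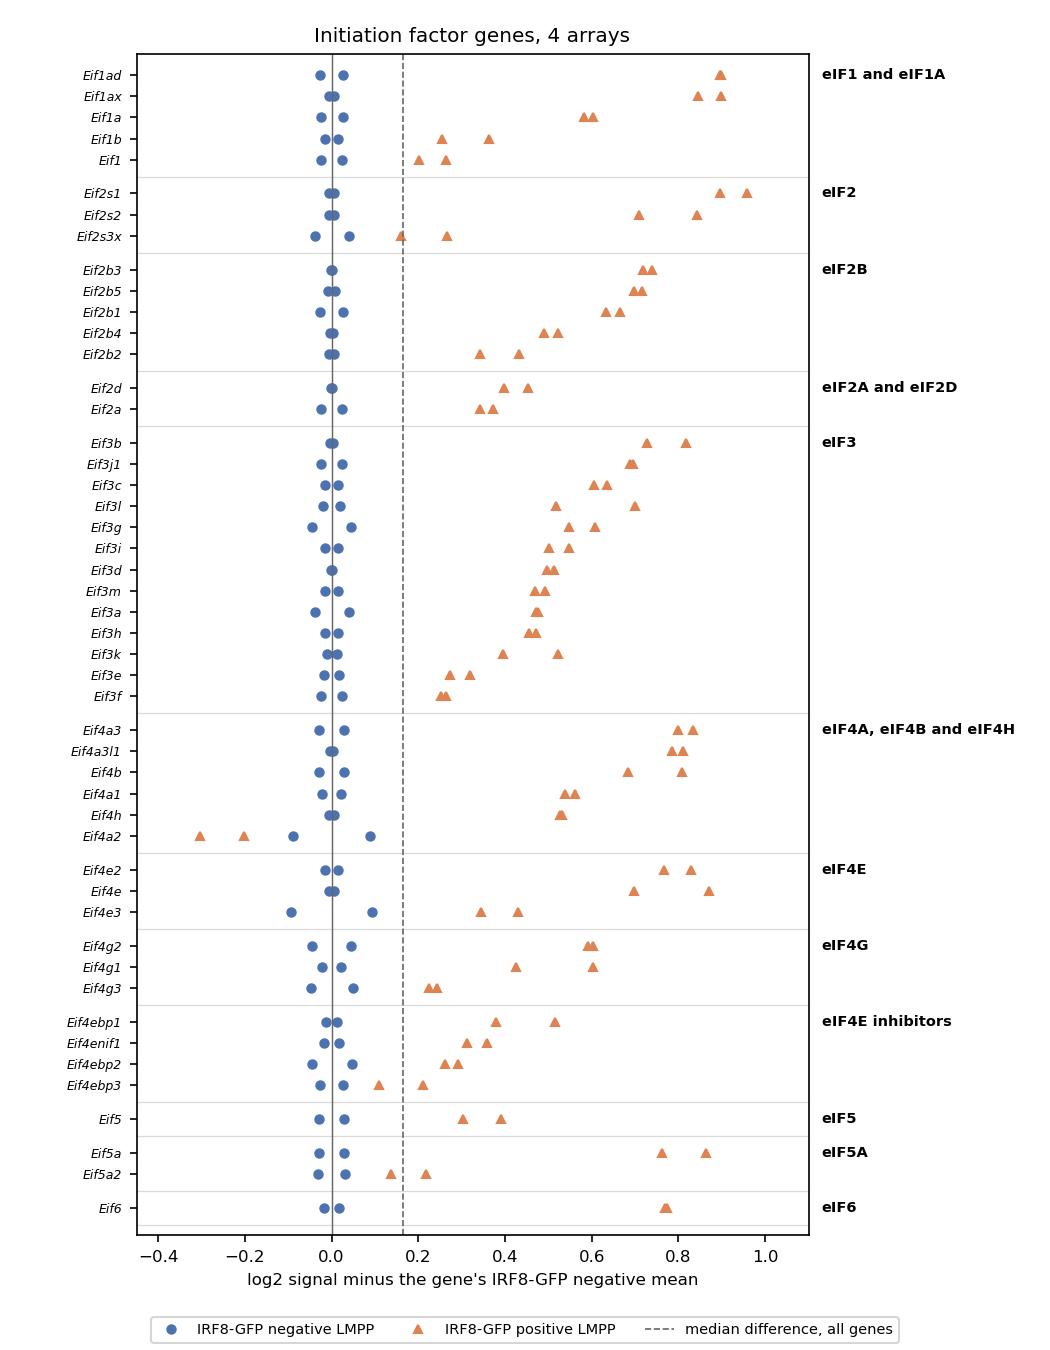
Each row is 1 initiation factor gene, grouped by complex. The horizontal axis gives the log2 signal of each of the 4 arrays minus the mean of the 2 IRF8-GFP negative arrays (circles), with positive arrays as triangles and the median difference of all genes, 0.16, as a dashed line. In every row but that of Eif4a2 both triangles lie to the right of both circles.

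Brightness matters for reading these counts, because bright genes as a whole were higher in the positive group. The median difference was -0.02 in the dimmest of 4 bins with equal gene numbers, 0.00 in the next, 0.19 in the third and 0.38 in the brightest. The brightest bin held 38 of the 48 members. There 37 of the 38 (97.4%) were called higher, beside 67.1% of all genes in that bin. After cyclic loess, a scaling that removes the trend with brightness, 15 of the 38 (39.5%) were higher beside 25.8%.

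**Figure D2:**
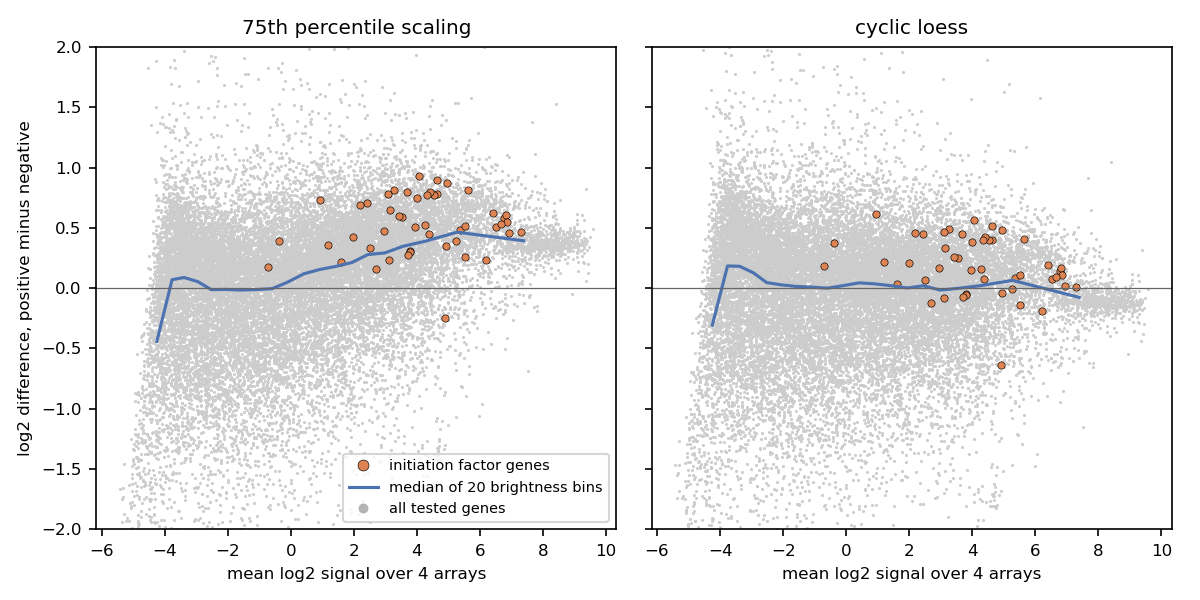
The log2 difference (positive minus negative) of every tested gene is plotted against its mean log2 signal over 4 arrays, with the 75th percentile scaling on the left and cyclic loess on the right, and genes beyond 2 in either direction are not shown. Grey points are all genes, orange points the 48 initiation factor genes, and the line joins medians of 20 brightness bins. The line climbs with brightness on the left and lies near 0 on the right over most of the range, where the members' median is 0.17.

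How many members counted as higher depended on the scaling, while their median stayed above that of all genes under each of them. The counts were 31 of 48 (64.6%, all genes 19.6%) with the percentile taken over probes above background on all arrays, 25 (52.1%, all genes 27.1%) with quantile normalization, 25 (52.1%, all genes 27%) in the authors' deposited values, 24 (50%, all genes 14.8%) with scaling to the spiked-in E1A control RNA, and 21 (43.8%, all genes 24.8%) with cyclic loess. The members' median lay between 0.17 and 0.53 over these and the other alternatives. The median of all genes moved from 0.16 to -0.07 with the percentile over detected probes, to -0.14 with spike-in scaling and to 0.02 to 0.04 with the other 3. Of all genes called in either direction, 64.3% were higher with the 75th percentile, 52.6% with quantile normalization, 52.4% in the deposited values, 49.1% with cyclic loess, 37.7% with the percentile over detected probes and 28.9% with spike-in scaling. The gap between the medians was 0.36 under every scaling by 1 factor per array, since such a factor shifts all genes alike, and 0.14 to 0.15 with quantile normalization, the deposited values and cyclic loess.

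**Figure D3:**
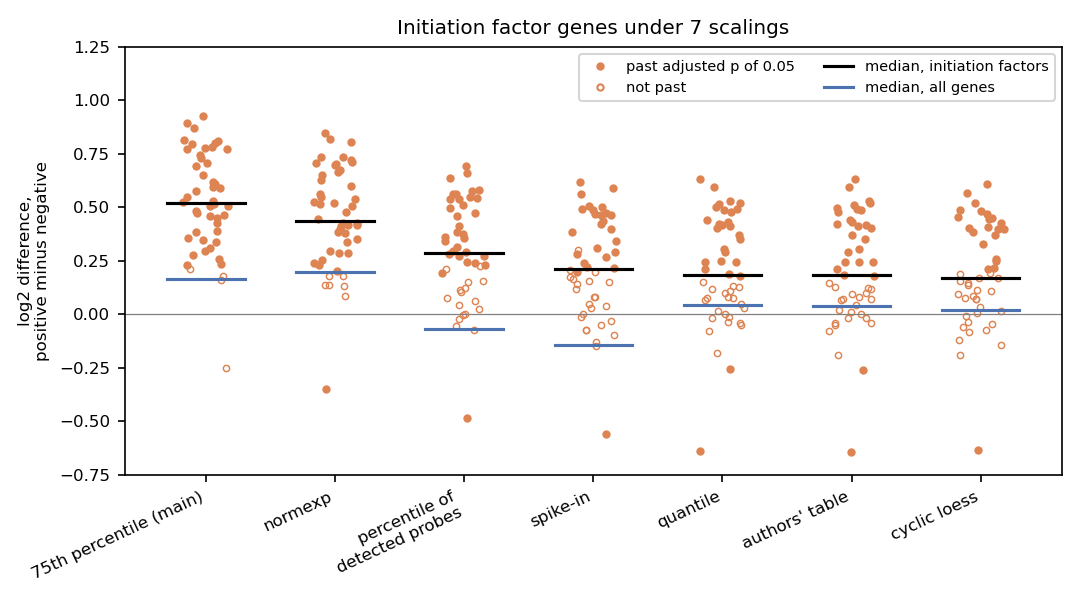
Each point is the log2 difference (positive minus negative) of 1 of the 48 initiation factor genes under 1 of 7 scalings, filled where the limma adjusted p is below 0.05. Black bars mark the members' median and blue bars the median of all genes. The black bar lies above the blue one in every column, and the point far below the rest is Eif4a2.

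Under all 17 alternatives tried, 17 of the 48 members (35.4%) were called higher, beside 12.6% of all genes. In the brightest bin they were 14 of 38 members (36.8%), beside 24.2% of all genes there. Their differences shrank too, to between 0.25 and 0.61 with cyclic loess. They are Eif1a, Eif1ax and Eif1ad, Eif2s1 and Eif2s2, Eif2b1, Eif2b3 and Eif2b5, Eif3b and Eif3j1, Eif4a3, Eif4a3l1 and Eif4b, Eif4e, Eif4g2, Eif5a and Eif6. These genes come from 9 of the 12 groups described below. The groups without such a gene are eIF2A with eIF2D, the eIF4E inhibitors, and eIF5. Leaving out an array cost 14 members their call. Without negative replicate 1 there were 30 higher members (all genes 21.3%), without negative replicate 2 31 (21.5%), without positive replicate 1 38 (33.6%) and without positive replicate 2 39 (35.8%). The 14 are Eif1, Eif1b, Eif2a, Eif2b2, Eif3e, Eif3f, Eif3k, Eif4e3, Eif4ebp1, Eif4ebp2, Eif4enif1, Eif4g1, Eif4g3 and Eif5, all of which lost it without negative replicate 1.

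The eIF2 complex delivers the initiator tRNA and is the target of the stress kinases through its alpha subunit. Eif2s1, which encodes that subunit, had log2 signals of 3.60 and 3.59 (negative) against 4.55 and 4.49 (positive), a difference of 0.93 (SE 0.06, limma adjusted p = 0.00185) and the largest of all members. Eif2s2, the beta subunit, went from 4.24 and 4.25 to 4.96 and 5.09, a difference of 0.78 (SE 0.07, adjusted p = 0.00283). For both genes the positive arrays lie well clear of the negative ones. Eif2s3x, the X-linked gamma subunit, read 1.46 and 1.54 against 1.77 and 1.66, a difference of 0.21 (SE 0.07) that did not pass (adjusted p = 0.0613) and turned below 0 with spike-in scaling and with the percentile over detected probes. The probes of 2 of these genes disagree. A dimmer probe of Eif2s1 gave a difference of 0.12, and a dimmer probe of Eif2s3x gave 0.73.

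The exchange factor eIF2B has 5 subunits, and all 5 genes rose, by 0.39 to 0.73. Eif2b3 and Eif2b5, which encode the gamma and epsilon subunits of its catalytic part, changed most. Eif2b3 read 0.57 and 0.57 (negative) against 1.29 and 1.31 (positive), a difference of 0.73 (SE 0.05, limma adjusted p = 0.00217). For Eif2b5 the signals were 2.06 and 2.08 against 2.77 and 2.79, a difference of 0.71 (SE 0.05, adjusted p = 0.00222). Replicates of both genes nearly coincide. The regulatory subunit genes were Eif2b1 (alpha), at 2.79 and 2.85 against 3.48 and 3.45 with a difference of 0.65 (SE 0.06, adjusted p = 0.00269), and Eif2b4 (delta), at 3.70 on both negative arrays against 4.19 and 4.22 with a difference of 0.51 (SE 0.05, adjusted p = 0.00371) that lost its call with cyclic loess (0.15). Eif2b2 (beta) had the smallest difference of the complex, 0.39 (SE 0.06, adjusted p = 0.00954), with 5.07 and 5.06 against 5.40 and 5.50, and its sign turned with quantile normalization, in the deposited values and with cyclic loess. Eif2a and Eif2d encode factors that can bring tRNA to the ribosome without eIF2. Eif2d went from 1.77 on both negative arrays to 2.17 and 2.22 (0.43, SE 0.06, adjusted p = 0.00595) and Eif2a from 0.98 and 1.03 to 1.38 and 1.35 (0.36, SE 0.06, adjusted p = 0.00933). With spike-in scaling both lost their call, at 0.12 for Eif2d and 0.05 for Eif2a.

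Among the factors of start codon scanning, the eIF1A genes Eif1ax and Eif1a had larger differences than the eIF1 genes. Eif1ax, on the X chromosome, read 4.51 and 4.52 (negative) against 5.36 and 5.41 (positive), a difference of 0.87 (SE 0.06, limma adjusted p = 0.0019). Its near-identical autosomal copy Eif1a read 3.22 and 3.27 against 3.82 and 3.85 (0.59, SE 0.06, adjusted p = 0.00302), and signals of such copies may mix on an array. Eif1ad, which encodes a protein with an eIF1A domain, went from 4.15 and 4.21 to 5.08 on both positive arrays (0.90, SE 0.06, adjusted p = 0.00186), and its other probe gave 0.85. Eif1, the gatekeeper of start codon choice, rose only by 0.23 (SE 0.06, adjusted p = 0.0328), from 6.06 and 6.11 to 6.35 and 6.29, and fell below 0 under 5 alternatives, 2 of which called it lower. Eif1b had a difference of 0.31 (SE 0.07, adjusted p = 0.0202) that was below 0 with spike-in scaling, cyclic loess and the deposited values.

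eIF3 is the large scaffold on the small subunit, and its 13 measured genes were all higher, by 0.26 to 0.77 with a median of 0.51. Eif3b, a core subunit, led with 4.14 and 4.15 (negative) against 4.87 and 4.96 (positive), a difference of 0.77 (SE 0.06, limma adjusted p = 0.00232). Eif3j1, a loosely bound subunit at the decoding site, followed with 1.81 and 1.86 against 2.53 on both (0.69, SE 0.06, adjusted p = 0.00234). Eif3j2, a near-identical copy, may add to its signal. Eif3b and Eif3j1 are the 2 eIF3 genes that passed under every alternative. Eif3c, another core subunit, read 6.12 and 6.08 against 6.71 and 6.73 (0.62, SE 0.06, adjusted p = 0.0027). Eif3l read 6.54 and 6.50 against 7.22 and 7.04 (0.61, SE 0.08, adjusted p = 0.00666), and Eif3g, which touches the mRNA, 6.53 and 6.44 against 7.03 and 7.09 (0.58, SE 0.07, adjusted p = 0.0041). All 3 lost their call with cyclic loess and quantile normalization, where their differences were 0.13 to 0.19.

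The other eIF3 genes formed a gradual series. Eif3i, a partner of Eif3b, went from 3.98 and 4.01 to 4.50 and 4.55, a difference of 0.52 (SE 0.06, limma adjusted p = 0.00373) that lost its call with cyclic loess (0.16). Eif3d, a subunit that can bind the cap of some mRNAs, went from 6.26 on both negative arrays to 6.78 and 6.76, a difference of 0.51 (SE 0.05, adjusted p = 0.0036). That of Eif3d was 0.03 with quantile normalization, 0.02 in the deposited values, 0.07 with cyclic loess and 0.20 with spike-in scaling, with no call in these 4. Eif3m, Eif3a, Eif3h and Eif3k lay between 0.46 and 0.48, and between 0.01 and 0.17 with cyclic loess. Eif3e and Eif3f had the smallest differences, 0.30 (SE 0.06, adjusted p = 0.0151) and 0.26 (SE 0.06, adjusted p = 0.0209), and both turned below 0 with quantile normalization, the deposited values, spike-in scaling and cyclic loess. For Eif3f the signals were 5.37 and 5.42 against 5.66 and 5.65. With cyclic loess 2 of the 13 eIF3 genes were higher, where 24.8% of all genes were, and with spike-in scaling 5, where 14.8% of all genes were.

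eIF4A is the RNA helicase that clears the leader of an mRNA, and its 2 main genes differed in sign. Eif4a1 read 6.60 and 6.55 (negative) against 7.11 and 7.14 (positive), a difference of 0.55 (SE 0.06, limma adjusted p = 0.00335), which lost its call with quantile normalization, the deposited values and cyclic loess. Eif4a2 read 4.95 and 5.12 against 4.73 and 4.83, a difference of -0.25 (SE 0.09, adjusted p = 0.0726) that did not pass. It was the single member below 0, and the only one whose positive arrays lay below its negative arrays. Its second probe gave -0.20, and the difference was below 0 under all 17 alternatives. In 9 of them it passed as lower. The share of all genes called lower was then 21.7% with the replicate block, 16% with normexp, 24.4% with quantile normalization, 24.5% in the deposited values, 32.4% with the percentile over detected probes, 36.2% with spike-in scaling, 25.7% with cyclic loess and 22.7% with an intensity trend, robust or not. At an adjusted p of 0.1 it passed as well, as did 24.8% of all genes.

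The ratio of Eif4a1 to Eif4a2 within an array is free of any scaling by 1 factor. Set to 0 for the mean of the negative group, its log2 value was 0.11 and -0.11 (negative) against 0.84 and 0.76 (positive). The change was 0.80, and the groups do not overlap. Cyclic loess, quantile normalization and the deposited values each gave 0.75, with 0.85 under normexp and 0.75 with the second Eif4a2 probe. With 2 arrays a group, p = 0.333 is the smallest value an exact permutation test can give for this or any other ratio.

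The upstream sequences of these helicase genes, and that of Eif4e, are shown because Eif4a1 and Eif4e were called higher and Eif4a2 was not. They are the 250 bases before the annotated start in RefSeq on GRCm38.p6, 5′ to 3′ along the gene's own strand, with the E-box CACGTG in capitals.
Eif4a1, chr11:69672424-69672673, minus strand: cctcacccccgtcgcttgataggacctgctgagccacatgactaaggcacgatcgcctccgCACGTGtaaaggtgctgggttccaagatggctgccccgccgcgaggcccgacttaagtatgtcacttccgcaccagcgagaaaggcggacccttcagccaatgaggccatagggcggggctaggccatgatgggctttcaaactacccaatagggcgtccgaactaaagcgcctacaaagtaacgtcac
Eif4a2, chr16:23107218-23107467, plus strand: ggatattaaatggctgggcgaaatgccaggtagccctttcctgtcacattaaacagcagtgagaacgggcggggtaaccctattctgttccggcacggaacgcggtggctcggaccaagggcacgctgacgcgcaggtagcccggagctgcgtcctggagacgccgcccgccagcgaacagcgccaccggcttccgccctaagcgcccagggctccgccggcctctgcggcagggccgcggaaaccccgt
Eif4e, chr3:138527018-138527267, plus strand: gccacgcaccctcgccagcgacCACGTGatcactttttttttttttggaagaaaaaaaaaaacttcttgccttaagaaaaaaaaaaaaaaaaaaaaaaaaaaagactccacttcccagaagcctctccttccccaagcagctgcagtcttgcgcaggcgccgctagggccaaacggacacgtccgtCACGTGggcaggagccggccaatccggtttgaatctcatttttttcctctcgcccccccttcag
CACGTG, which Myc and related proteins can bind and which reads the same on both strands, stands once before Eif4a1, 189 bases from the start, and at 228 and 64 bases before this start of Eif4e, one of the pair listed for it. It is not among the letters of the Eif4a2 window, nor of the window at the other start of Eif4e. The windows of Eif4a3, Eif4a3l1 and Eif4b, all called higher, also lack it. That of Eif4h, called higher, holds 1, and that of Eif5a2, not called, holds 2. RefSeq held 51 promoters for 39 of the 50 genes, some of them overlapping, and 11 of the 51 (21.6%) held CACGTG, as did 6.02% of all 32851 promoters and 9.76% of those of genes in the brightest bin. The motifs 185 and 74 bases before different starts of Eif5a are the same site, which the count of 11 includes more than once. Members with the motif in a window had a median difference of 0.51 (9 tested genes) and those without it 0.58 (29 genes). Of the 9, 8 were called higher, and of the 29, 27, where 38.5% of all genes were. The Ets core CCGGAAG or its reverse CTTCCGG was in 12 of the 51 (23.5%), beside 6.91% of all promoters and 16.5% in the brightest bin. The GC box GGGCGG (reverse CCGCCC) was in 68.6% (all 32.7%, brightest bin 57.9%), and the CCAAT box ATTGG (reverse CCAAT) was less frequent, in 25.5% (all 33.8%, brightest bin 35.7%). The TATA box TATAAA (reverse TTTATA) was in 5.88% (all 12.4%, brightest bin 5.98%), the palindromic Nrf1 motif in 1.96% (all 0.782%, brightest bin 1.76%) and the element TGATGCAA (reverse TTGCATCA) in 0 (all 0.791%, brightest bin 0.53%). A match is a description of letters and not of a bound site.

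Other helicase genes and cofactors rose. Eif4a3, which encodes the helicase of the exon junction complex rather than an initiation helicase, read 2.84 and 2.90 (negative) against 3.66 and 3.70 (positive), a difference of 0.82 (SE 0.06, limma adjusted p = 0.00211). Eif4a3l1, a copy of it whose signal may include Eif4a3 RNA, read 4.012 and 4.004 against 4.82 and 4.79 (0.80, SE 0.05, adjusted p = 0.00197). The helicase cofactor gene Eif4b read 3.60 and 3.66 against 4.44 and 4.31 (0.75, SE 0.07, adjusted p = 0.00302), and its 2 dimmer probes gave 0.40 and 0.49. Eif4h, a relative of Eif4b in function, read 6.38 and 6.40 against 6.92 on both (0.53, SE 0.05, adjusted p = 0.0033) and lost its call with cyclic loess and quantile normalization.

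The cap-binding gene Eif4e rose with 2.69 and 2.71 (negative) against 3.40 and 3.57 (positive), a difference of 0.78 (SE 0.08, limma adjusted p = 0.00345). A dimmer probe gave 0.28. Eif4e2 encodes a cap-binding relative that represses translation. Its brightest probe read 3.27 and 3.30 against 4.12 and 4.05 (0.80, SE 0.06, adjusted p = 0.00215), while its 2 dimmer probes gave -0.25 and -0.56, so that the mean of the probes was -0.00489 and no direction can be given for the gene as a whole. Eif4e3, an atypical cap-binding relative, read -0.66 and -0.47 against -0.22 and -0.14 (0.39, SE 0.09, adjusted p = 0.0247) and lost its call with spike-in scaling (0.08). Of the 18 members with more than 1 kept probe, 13 had probe differences within 0.25 of each other, and the 5 that did not are Eif2s1, Eif2s3x, Eif4b, Eif4e and Eif4e2.

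eIF4G ties the cap complex to eIF3. Eif4g2, which encodes DAP5, a form that lacks the eIF4E-binding part, rose most, with 3.08 and 3.17 (negative) against 3.73 and 3.72 (positive), a difference of 0.60 (SE 0.06, limma adjusted p = 0.00346). Eif4g1, the main scaffold, read 5.24 and 5.29 against 5.69 and 5.87 (0.51, SE 0.08, adjusted p = 0.00973) and lost its call with quantile normalization (0.07), cyclic loess (0.11) and spike-in scaling (0.21). Eif4g3 had 2.94 and 3.04 against 3.23 and 3.22 (0.23, SE 0.06, adjusted p = 0.0373) and fell below 0 under 5 alternatives.

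Genes of eIF4E inhibitors had differences below that of the brightest Eif4e probe. Eif4ebp1 read 4.13 and 4.16 (negative) against 4.53 and 4.66 (positive), a difference of 0.45 (SE 0.07, limma adjusted p = 0.00957), Eif4ebp2 had a difference of 0.28 (SE 0.06, adjusted p = 0.0239), and Eif4enif1, a transporter that carries eIF4E to the nucleus and to RNA granules, had 0.34 (SE 0.06, adjusted p = 0.0109). Eif4ebp3 read 2.58 and 2.64 against 2.72 and 2.82, a difference of 0.16 (SE 0.07, adjusted p = 0.105) at the median of all genes. No gene of this group of 4 was called with cyclic loess or with spike-in scaling. Of all genes, 24.8% were higher and 25.7% lower with cyclic loess, and 14.8% and 36.2% with spike-in scaling. The signs of Eif4ebp2 and Eif4ebp3 turned under both scalings. Within an array the log2 ratio of Eif4e to Eif4ebp1, relative to its negative mean, was 0.01 and -0.01 (negative) against 0.32 and 0.36 (positive), a change of 0.34 without overlap. With the dimmer Eif4e probe the difference of Eif4e was below that of Eif4ebp1, so the direction of this ratio depends on the probe.

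The late factors differed as well. Eif5, which encodes the GTPase activator of eIF2, rose from 4.74 and 4.79 to 5.07 and 5.16 (0.35, SE 0.06, limma adjusted p = 0.014) and turned below 0 with quantile normalization, the deposited values and cyclic loess. Eif6, whose product keeps free large subunits from pairing with small ones and takes part in their assembly, read 3.97 and 3.93 against 4.72 on both (0.77, SE 0.05, adjusted p = 0.00208), and its other probe gave 0.80. Both probes and every alternative thus placed Eif6 higher.

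Eif5a, which encodes a factor that helps the ribosome through difficult peptide bonds, read 5.25 and 5.20 (negative) against 6.09 and 5.99 (positive), a difference of 0.81 (SE 0.07, limma adjusted p = 0.0024). Its relative Eif5a2 read -0.78 and -0.84 against -0.67 and -0.59, a difference of 0.18 (SE 0.06) that did not pass (adjusted p = 0.0755) and turned below 0 with spike-in scaling and the percentile over detected probes. With quantile normalization it was 0.25 and passed (adjusted p = 0.0349), and Eif5a2 was called higher in 2 of the 17 alternatives. The log2 ratio of Eif5a to Eif5a2, relative to its negative mean, was -0.00324 and 0.00324 (negative) against 0.72 and 0.54 (positive), a change of 0.63. This change depended on the scaling, at 0.11 with quantile normalization and in the deposited values and 0.22 with cyclic loess. eIF5A works only once a lysine has been turned into hypusine by the products of Dhps and Dohh. Those genes rose by 0.60 each (SE 0.06 for both, adjusted p = 0.00324 for Dhps and 0.00292 for Dohh), and each passed under all 17 alternatives.

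The other ratios between related members were smaller or rested on 1 probe or 1 scaling, and no difference between members was tested. Eif2s1 to Eif2s3x changed by 0.72, and by 0.51 to 0.53 with quantile normalization, the deposited values and cyclic loess, but over the probes of both genes the change ran from -0.61 to 0.72. Eif4e to Eif4e3 changed by 0.40, by 0.09 with quantile normalization and 0.10 with cyclic loess, and by -0.10 with the dimmer Eif4e probe. Eif4ebp1 to Eif4ebp3 changed by 0.29 (0.17 with quantile normalization) and Eif4g1 to Eif4g3 by 0.28 (0.11 with quantile normalization). Eif1a to Eif1ax fell by 0.28 (by 0.19 with quantile normalization) and Eif4a1 to Eif4a3 by 0.27 (by 0.42 with quantile normalization).

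**Figure D4:**
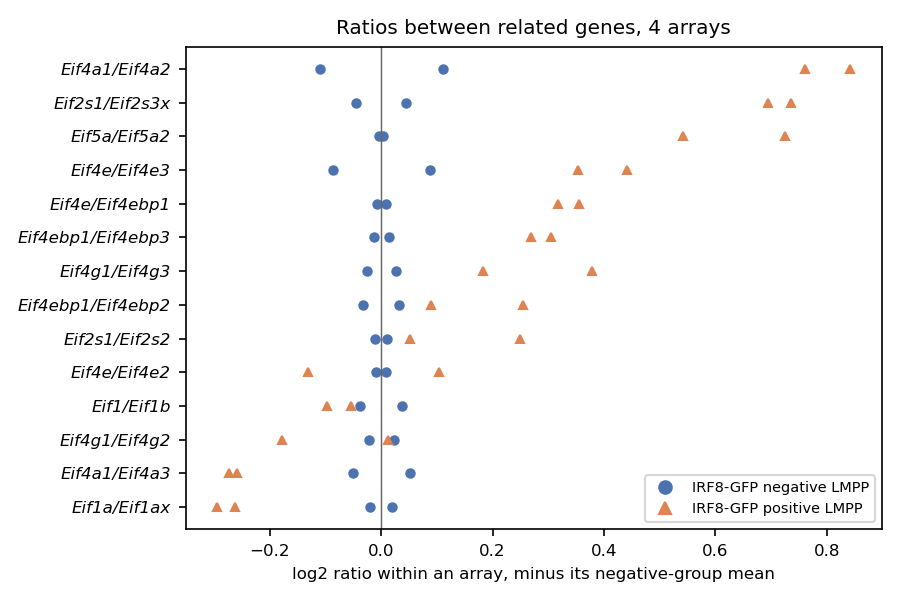
Each row is the log2 ratio of 2 related genes within an array, minus the mean of that ratio over the 2 IRF8-GFP negative arrays; circles are negative and triangles positive arrays. The ratio of Eif4a1 to Eif4a2 changed most, by 0.80, and the groups overlap for Eif4e to Eif4e2 and Eif4g1 to Eif4g2.

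Genes that work beside the initiation factors were taken from lists of the pathway, whose counts stand beside 38.5% of all genes higher and 21.4% lower. All 8 genes listed for start site choice and ribosome recycling were higher, with a median of 0.60, and 6 to 8 of them passed under each scaling. The list includes Dhps and Dohh, the hypusine genes given above, whose products act on eIF5A instead. Bzw2, which encodes a regulator that mimics eIF5, rose by 0.82 (SE 0.05, limma adjusted p = 0.00191) and Abce1, the ribosome recycling ATPase, by 0.71 (SE 0.06, adjusted p = 0.00262). Of 8 tested genes listed by an elongation factor symbol (Eef), 6 were higher and 0 lower. With cyclic loess 2 were higher and 0 lower, where 24.8% of all genes were higher and 25.7% lower. The share higher was then near that of all genes. Despite the symbol, Eef1e1 and Eef2k do not encode elongation factors. The largest differences were those of Eef1e1 at 0.67 (SE 0.06, adjusted p = 0.00256) and Eef1d at 0.55 (SE 0.06, adjusted p = 0.00374, called in 14 of 17 alternatives). Of 7 termination and rescue genes 4 were higher and 0 lower. Gspt1, a release factor gene, led with 0.90 (SE 0.06, adjusted p = 0.00193), before the rescue factor gene Pelo at 0.77 (SE 0.08, adjusted p = 0.00308). With spike-in scaling 3 of the 7 were higher and 2 lower, where 14.8% of all genes were higher and 36.2% lower.

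Lists of initiation regulators held genes of both directions. Among 13 genes listed as eIF4 cofactors and kinases 5 were higher and 2 lower, near the shares of all genes, and the median of 0.17 was close to the 0.16 of all genes and turned below 0 with spike-in scaling and the percentile over detected probes. Pabpc4, a poly(A)-binding protein gene, rose by 0.73 (SE 0.07, limma adjusted p = 0.00334), and the largest difference, 0.82 (SE 0.06, adjusted p = 0.00223), was that of Nxt1, which acts in mRNA export rather than on eIF4. Of 9 genes of eIF2 kinases and the phosphatase 5 were higher and 1 lower. Ppp1ca, a catalytic phosphatase subunit, rose by 0.69 (SE 0.05, adjusted p = 0.00228), and Impact, an inhibitor of the kinase GCN2, fell by 0.66 (SE 0.09, adjusted p = 0.00606). The median of this list, 0.41, turned below 0 with quantile normalization and in the deposited values.

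Of 14 genes of mTORC1 and its regulators 6 were higher and 1 lower, and with spike-in scaling 1 and 4, where all genes had 14.8% higher and 36.2% lower. Larp1, which binds mRNAs of the translation machinery, rose by 0.65 (SE 0.05, limma adjusted p = 0.00238), with the call kept in 15 of 17 alternatives. Castor1, an arginine sensor, was at least 2.41-fold lower (adjusted p = 0.00518) with the scaling used for the other differences given here. This is a bound because Castor1 was not well above background on either positive array. Its measured means with that scaling were -2.68 (negative) and -4.12 (positive). The measured difference ranged from -1.75 to -0.29 over the other scalings, so the bound does not hold under all of them. The call was kept in 15 of 16 alternatives. Among 9 tested targets of the integrated stress response, the programme that follows eIF2 phosphorylation, 4 were higher and 3 lower, and their median of 0.27 turned below 0 with quantile normalization, spike-in scaling and in the deposited values. Trib3, a pseudokinase gene of this programme, fell by 2.52 (SE 0.09, adjusted p = 0.00118), from 1.61 and 1.82 to -0.83 and -0.78, whereas Phgdh, an enzyme of serine synthesis, rose by 0.83 (SE 0.05, adjusted p = 0.0019), from 5.91 and 5.93 to 6.75 on both. Trib3 and Phgdh kept direction and call under all 17 alternatives.

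**Figure D5:**
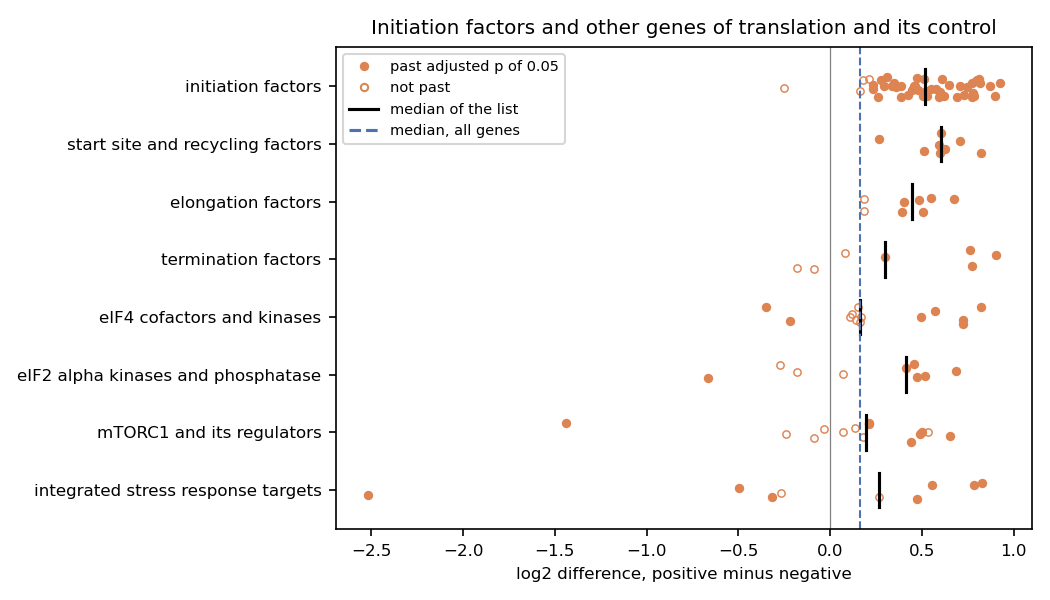
Each point is the log2 difference (positive minus negative) of 1 gene in the initiation factor set or in 1 of 7 lists of the pathway, filled where the limma adjusted p is below 0.05. Black bars are list medians and the dashed line is the median of all genes, 0.16. Initiation factors and genes of the start site and recycling list lie mostly to the right of the dashed line. The lists of regulators spread to both sides, with Trib3 farthest left at -2.52.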

How the data were processed

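RNA of 4 samples was labelled with Cy3 and hybridized to 1 array each. Per the file headers, Agilent Feature Extraction 10.7.3.1 gave the deposited intensity of each spot after background subtraction and detrending, with no normalization across arrays. The authors' value table holds intensity values that are quantile normalized, judging from the values. Control and outlier spots were left out, spots of a probe averaged, and log2 taken relative to each array's 75th percentile. Probes well above background (at least 0.5 of spots) on both arrays of a group were kept, 30478 of 55669. On each array 29631 to 33681 of 59305 spots were well above background. Precision is limited by having 2 arrays a group. Accessions were named through RefSeq (GRCm38.p6; 26750 probes with 1 symbol), and the brightest kept probe stood for a gene. Both groups were compared with limma 3.58.1 (lmFit, eBayes, no block) in R 4.3.3 over 22362 genes, two-sided, with Benjamini-Hochberg adjustment and a threshold of 0.05. This threshold matched an unadjusted p of 0.0299, since most genes differed. The fit was tested on simulated data. Promoters were searched over the 250 bases before the start. Members and lists were chosen with earlier results of these data known, so lists have no test. Genes are given array by array if they have the largest or smallest difference of their complex or a called difference of at least 0.5; from each pathway list the 2 largest called differences are given. Alternatives were a replicate block, leaving out each array in turn, normexp (offset 50) on median signals, other scalings, the authors' table, other dim-probe filters, variance trends, the mean of probes, and other thresholds. Of the red cell markers, 1 is not reported here.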

Additional observations from a re-analysis of the deposited data

How the results depend on the processing

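The median difference of the 48 members was above 0 under all 17 alternatives. It was 0.44 with normexp, 0.29 with the percentile over detected probes, 0.21 with spike-in scaling, 0.18 with quantile normalization and in the authors' deposited values, 0.17 with cyclic loess and 0.51 with the mean of a gene's probes, and 0.51 to 0.53 when an array was left out. Against 44 higher and 0 lower members, there were 25 and 2 with quantile normalization, 25 and 2 in the authors' deposited values, 24 and 1 with spike-in scaling and 21 and 1 with cyclic loess. Eif4a2 was also the 1 lower member with the replicate block, normexp, the percentile over detected probes, both intensity trends and an adjusted p of 0.1. The replicate block gave 42 higher and 1 lower members. The labels share only a replicate number between groups, and the deviations of exp 1 from exp 2 correlated at 0.0971 over genes between the groups. With quantile normalization the sign turned for Eif1 (-0.26), Eif2b2 (-0.014), Eif3e (-0.0156), Eif3f (-0.18), Eif4ebp2 (-0.041), Eif4ebp3 (-0.0766), Eif4g3 (-0.0381) and Eif5 (-0.0505). With the percentile over detected probes the sign turned for Eif1 (-0.00191), Eif2s3x (-0.0216), Eif4ebp3 (-0.0737), Eif4g3 (-0.00088) and Eif5a2 (-0.0558). With spike-in scaling the sign turned for Eif1b (-0.000315), Eif1 (-0.076), Eif2s3x (-0.0956), Eif3e (-0.0123), Eif3f (-0.0497), Eif4ebp2 (-0.0323), Eif4ebp3 (-0.15), Eif4g3 (-0.075) and Eif5a2 (-0.13). With cyclic loess the sign turned for Eif1b (-0.0463), Eif1 (-0.19), Eif2b2 (-0.00677), Eif3e (-0.0583), Eif3f (-0.14), Eif4ebp2 (-0.0748), Eif4ebp3 (-0.12), Eif4g3 (-0.0833) and Eif5 (-0.0388). In the authors' deposited values the sign turned for Eif1b (-0.00139), Eif1 (-0.26), Eif2b2 (-0.0182), Eif3e (-0.0172), Eif3f (-0.19), Eif4ebp2 (-0.0419), Eif4ebp3 (-0.0786), Eif4g3 (-0.0397) and Eif5 (-0.0529). With the mean of a gene's probes the sign turned for Eif4e2 (-0.00489). Over all members and alternatives, 648 values kept direction and side of the threshold, 110 lost the call, 17 gained one and 41 turned sign. The cause was not tested, beyond that a scaling by 1 factor shifts all genes alike. The dim end of the scale is limited by background.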
